A study of Mus musculus with 32 samples.

Results

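Most GATA3 and Runx3 peaks did not overlap a peak of the other factor in Scid.adh.2c2, a mouse pro-T-like cell line derived from a lymphoma. The binding data were the authors' ChIP-seq peak lists for GATA3, with 36973 peaks, and for Runx3, with 20523 peaks. All 57496 peaks of both lists were used, out of 215616 peaks in the 8 lists of the series. A peak was called common when it overlapped a peak of the other factor by at least 1 bp, and GATA3-only or Runx3-only otherwise. This gave 3894 common pairs, 33079 GATA3-only peaks and 16629 Runx3-only peaks, which together made 53602 distinct regions. Sharing was wider by nearest gene. Peaks of both factors were assigned to 7501 genes, 56.7% of the 13228 genes with a GATA3 peak and 68.6% of the 10936 with a Runx3 peak. Whether this exceeds what the numbers of peaks would give was not tested.

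The ChIP-seq groups were cells of the unmodified line precipitated with a mixture of 2 commercial anti-GATA3 antibodies or with an anti-Runx3 antibody obtained from another laboratory, with 2 libraries per factor. The cells were cross-linked with disuccinimidyl glutarate (DSG) and then formaldehyde. The RNA-seq groups were the same line transduced with a control guide (sgControl-CFP) or with a guide against Bcl11b (sgBcl11b-CFP), with 2 libraries each. Peak lists for Bcl11b and Runx1 from the same line, and for GATA3 and Runx3 from ILC2/b6, a mouse line of group 2 innate lymphoid cells kept in medium containing the cytokines IL-2, IL-7 plus IL-33 (10 ng per ml), served for comparison. The labels do not say whether replicate libraries came from separate cultures. Each peak list was made from both libraries of a factor together, so the shares of peaks below have no replicate error, were not tested, and carry Wilson 95% intervals that cover counting error only.

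GATA3 is a zinc-finger factor that recognises GATA words in DNA and is needed for early T-cell development and for group 2 innate lymphoid cells. Runx3 carries a Runt domain, pairs with the non-DNA-binding subunit Cbfb and recognises the word TGTGGT and its relatives; its paralogue Runx1 reads the same word. Bcl11b is a zinc-finger factor of T-lineage commitment.

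The RNA of the line carried most of the T-lineage genes that its label calls for. Of 10 pro-T marker genes, 9 reached 1 RPKM (reads per kilobase of transcript, scaled to library depth) in both control libraries, and the exception was Dntt, the terminal transferase, at 0.300 and 0.280 RPKM. None of 5 B-cell markers and none of 5 markers of group 2 innate lymphoid cells reached that level, against 1 of 5 myeloid markers (Itgam) and 2 of 5 NK-cell markers (Il2rb and Gzmb). The summed level of the pro-T markers was 1194 and 1237 RPKM, and that of the NK-cell markers was 7.07 and 3.89 RPKM. In the longer gene lists used below, 18 of 25 T-lineage genes reached 1 RPKM in both control libraries. Those under it included Rag2, Cd5, Cd6 and Cd27. Of 23 NK-cell genes 7 reached it, among them Gzma at 209.4 and 197.6 RPKM. Of 22 genes of group 2 innate lymphoid cells and type 2 immunity 9 did, among them Il17rb at 28.2 and 30.7 RPKM. The smallest steps between RPKM values gave a depth of 43.7 and 34.7 M reads in the control libraries and 40.8 and 40.2 M reads in the libraries with the Bcl11b guide.

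Promoter windows of 6 genes with a promoter peak illustrate the 3 kinds of region. They are the RefSeq windows of build GRCm38.p6 from 250 bases before to 50 bases after the start site, given 5′ to 3′ on the strand of the gene. Capitals mark GATA words and the RUNX word on either strand. The GATA words searched were AGATAA as well as TGATAA and the variant AGATAG, and the RUNX word was TGTGGT; words may overlap, and no match says only that these letters are absent from the window. Rag1, which encodes a recombinase of antigen receptor genes, and Gzma, the protease granzyme A, had common peaks centred 41 and 4 bases downstream of the start site. The Rag1 window lies at chr2:101649483-101649782 and the Gzma window at chr13:113100932-113101231, both on the minus strand.
Rag1: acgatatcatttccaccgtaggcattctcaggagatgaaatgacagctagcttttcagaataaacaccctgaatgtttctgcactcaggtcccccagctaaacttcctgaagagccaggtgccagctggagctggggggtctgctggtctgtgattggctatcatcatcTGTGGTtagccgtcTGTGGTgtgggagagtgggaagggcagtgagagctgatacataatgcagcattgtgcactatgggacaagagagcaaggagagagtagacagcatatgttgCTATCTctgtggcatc
Gzma: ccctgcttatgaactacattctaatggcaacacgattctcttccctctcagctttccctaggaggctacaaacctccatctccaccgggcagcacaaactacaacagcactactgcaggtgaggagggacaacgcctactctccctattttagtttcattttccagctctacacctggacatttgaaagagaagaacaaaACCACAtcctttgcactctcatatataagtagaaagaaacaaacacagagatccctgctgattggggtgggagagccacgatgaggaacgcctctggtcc
The Rag1 window held 2 RUNX words and 1 GATA word, and the Gzma window held 1 RUNX word and no GATA word. Tgtp2, an interferon-inducible GTPase with a close paralogue, had a GATA3-only peak centred 39 bases upstream of the start (-39). Its window, chr11:49064163-49064462 on the minus strand, held 1 GATA word and no RUNX word.
Tgtp2: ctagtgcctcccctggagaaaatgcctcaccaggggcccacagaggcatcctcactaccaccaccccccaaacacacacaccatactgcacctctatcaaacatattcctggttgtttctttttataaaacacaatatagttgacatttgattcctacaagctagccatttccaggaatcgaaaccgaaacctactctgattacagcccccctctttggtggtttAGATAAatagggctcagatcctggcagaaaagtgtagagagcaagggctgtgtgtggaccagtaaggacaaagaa
Rpl41, a ribosomal protein gene, Ptcra, the invariant chain of the pre-T-cell receptor, and Cd3g, a chain of the T-cell receptor complex, had Runx3-only peaks centred at -96, -11 and -37 bases from the start. Their windows lie at chr10:128549119-128549418, chr17:46763663-46763962 and chr9:44980382-44980681, all on the minus strand.
Rpl41: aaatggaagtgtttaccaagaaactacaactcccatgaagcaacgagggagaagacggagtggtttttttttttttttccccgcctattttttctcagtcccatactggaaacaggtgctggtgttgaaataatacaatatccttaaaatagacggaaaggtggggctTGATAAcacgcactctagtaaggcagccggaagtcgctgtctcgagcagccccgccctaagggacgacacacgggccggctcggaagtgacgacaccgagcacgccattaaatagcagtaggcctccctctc
Ptcra: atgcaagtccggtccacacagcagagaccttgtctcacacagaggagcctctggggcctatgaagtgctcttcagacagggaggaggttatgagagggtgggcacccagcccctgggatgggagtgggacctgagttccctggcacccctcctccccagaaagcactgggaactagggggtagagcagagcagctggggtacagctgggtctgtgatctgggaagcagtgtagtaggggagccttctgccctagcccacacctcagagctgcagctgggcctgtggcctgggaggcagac
Cd3g: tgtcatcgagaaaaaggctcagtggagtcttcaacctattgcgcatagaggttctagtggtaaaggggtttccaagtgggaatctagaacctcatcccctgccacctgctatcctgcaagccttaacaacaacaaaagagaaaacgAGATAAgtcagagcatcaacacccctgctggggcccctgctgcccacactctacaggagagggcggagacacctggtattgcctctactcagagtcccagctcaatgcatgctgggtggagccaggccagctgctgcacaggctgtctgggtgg
None of these 3 windows held TGTGGT or its complement; the Rpl41 and Cd3g windows each held 1 GATA word and the Ptcra window held neither word.

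Over all promoters of the RefSeq table, 28.1% of 27025 genes had a GATA word and 18.9% had the RUNX word in a window. Among genes with promoter peaks of the common class alone and a peak centre inside the window, 138 of 167 could be matched to the table, and 40.6% of these (95% interval 32.7 to 48.9) had a GATA word while 16.7% had the RUNX word. For Runx3-only promoter peaks, 3573 of 4331 genes could be matched, and 14.3% had a GATA word and 15.8% the RUNX word. The median GC content of the windows was 52.8% over all genes, 58.6% for the common class and 62.0% for the Runx3-only class, and its part in the word counts was not tested. For GATA3-only promoter peaks only 66 of 103 genes had a window (64.1%), so the comparison is void for that class.

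The common peaks were 10.5% of the GATA3 list (10.2 to 10.8) and 19.0% of the Runx3 list (18.4 to 19.5). Every common GATA3 peak met exactly 1 Runx3 peak. The centres of a pair lay a median of 49.5 bp apart, with quartiles of 22 and 99 bp, and 50.9% of the pairs had centres within 50 bp. Single-factor peaks, which by definition did not overlap the other factor, lay at varied distances from it. The nearest Runx3 peak was a median of 36.6 kb from a GATA3-only peak. Of the GATA3-only peaks, 4.90% had one within 1 kb, 25.2% within 10 kb and 68.4% within 100 kb. The nearest GATA3 peak was a median of 10.8 kb from a Runx3-only peak. Of the Runx3-only peaks, 10.3% had one within 1 kb, 48.0% within 10 kb and 97.5% within 100 kb. These distances were not matched for the lengths of the lists. When each list was cut to the same number of peaks by score, the common share was 15.6% of both lists.

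Overlap was more frequent at high peak scores; the score is the authors' value and ranks peaks within 1 list only. When the GATA3 list was divided by score into 10 equal bins, 42.0% of the highest bin were common, 16.7% of the next and 3.41% of the lowest. In the Runx3 list the share ran from 30.3% in the highest bin to 15.1% in the lowest. The median GATA3 score was 52.6 in common peaks and 23.4 in GATA3-only peaks, and the median Runx3 score was 34.9 in common peaks and 28.5 in Runx3-only peaks.

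**Figure D1:**
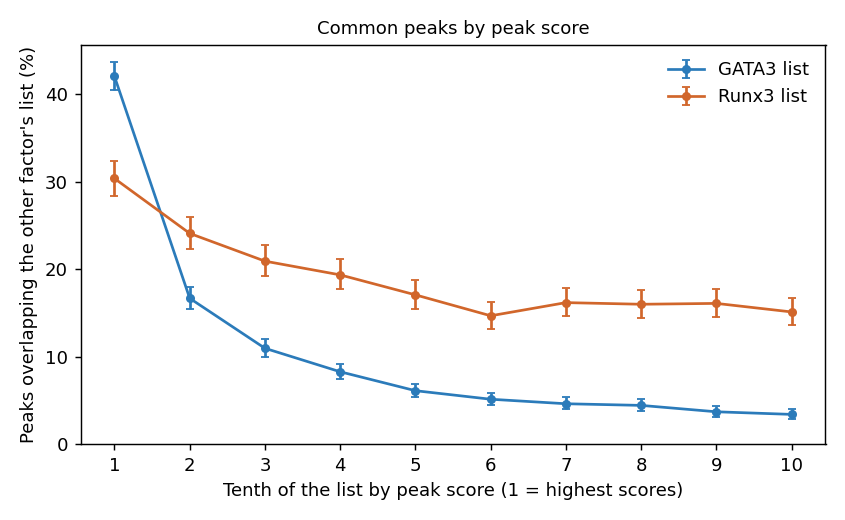
Share of peaks (y axis, %) that overlap a peak of the other factor, by score bin of the GATA3 list (blue) and the Runx3 list (orange), with bin 1 holding the highest scores (x axis); bars are Wilson 95% intervals. The GATA3 curve falls from 42.0% to 3.41%, and the Runx3 curve from 30.3% to 15.1%.

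Of the 3 classes, Runx3-only peaks lay most often at promoters. By the authors' annotation, 6164 of 16629 Runx3-only peaks (37.1%, interval 36.3 to 37.8) lay at a promoter, against 324 of 3894 common peaks (8.32%, 7.49 to 9.23) and 676 of 33079 GATA3-only peaks (2.04%, 1.90 to 2.20). The 3 intervals did not overlap, but they cover counting error only. A high promoter share was not particular to Runx3-only peaks. In the whole lists of the line it was 39.9% for Runx1, 35.8% for Bcl11b, 31.8% for Runx3 and 2.70% for GATA3. GATA3-only peaks were mainly intergenic (54.1%) or intronic (40.7%), and common peaks were likewise intergenic (44.8%) or intronic (42.2%). Runx3-only peaks were intergenic in 27.9% and intronic in 28.8%. Among intronic peaks, intron 1 held 42.5% of the Runx3-only peaks, 34.6% of the common peaks and 32.4% of the GATA3-only peaks.

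**Figure D2:**
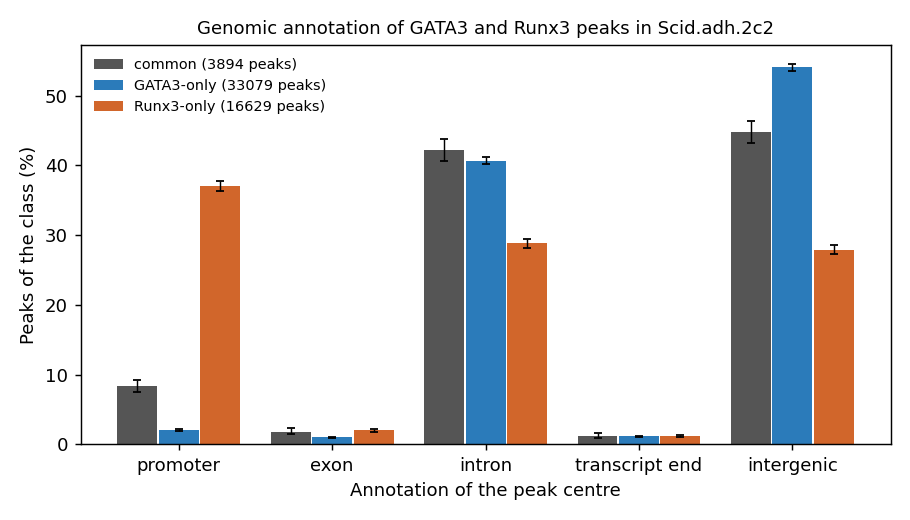
Share of the peaks of each class (y axis, %) in 5 annotation categories of the peak centre (x axis), by the authors' annotation; bars are Wilson 95% intervals, and UTR and non-coding categories, each under 2% in every class, are not drawn. Runx3-only peaks lead at promoters with 37.1%, and GATA3-only peaks lead in intergenic DNA with 54.1%.

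The common share at promoters was higher than elsewhere in the GATA3 list and lower than elsewhere in the Runx3 list. Of the 1000 GATA3 peaks at promoters, 32.4% were common (29.6 to 35.4), against 9.92% of the GATA3 peaks elsewhere. Of the 6518 Runx3 peaks at promoters, 5.43% were common (4.91 to 6.01), against 25.3% of those elsewhere. The lists were annotated with different versions of the gene models, and 96.8% of the common pairs received the same category in both.

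Distances to the nearest start site followed the same order. The median distance was 34.7 kb for GATA3-only peaks (quartiles 11.1 and 106.1 kb), 22.8 kb for common peaks (5.96 and 62.0 kb) and 3.51 kb for Runx3-only peaks (0.106 and 26.4 kb). Within 1 kb of a start site lay 43.5% of the Runx3-only peaks, 10.9% of the common peaks and 3.50% of the GATA3-only peaks. Beyond 100 kb lay 26.3% of the GATA3-only peaks, 15.4% of the common peaks and 7.35% of the Runx3-only peaks. The order did not rest on promoters alone: outside promoters the medians were 36.1, 27.4 and 17.6 kb for GATA3-only, common and Runx3-only peaks. With 1 set of start sites for both lists the medians were 37.4, 24.9 and 4.66 kb in the same order.

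**Figure D3:**
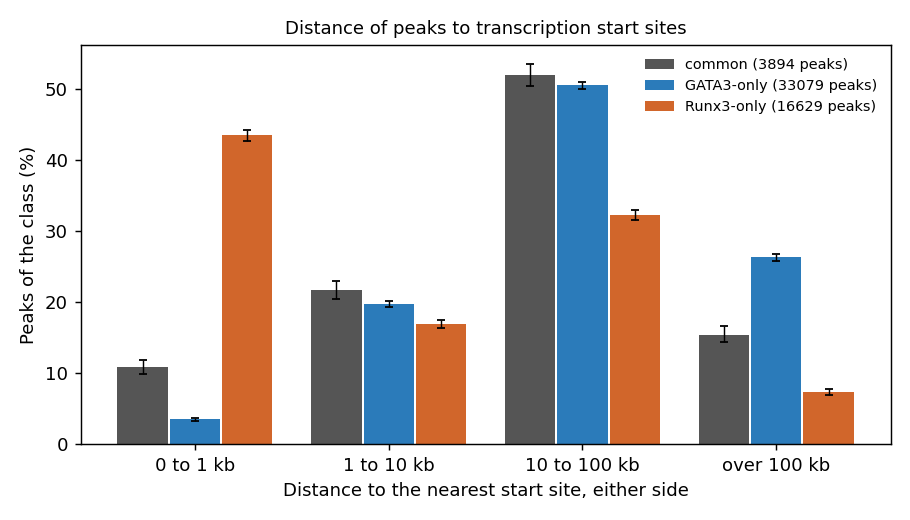
Share of the peaks of each class (y axis, %) by distance to the nearest start site on either side (x axis, 4 ranges in kb); bars are Wilson 95% intervals. Runx3-only peaks concentrate within 1 kb (43.5%), and common and GATA3-only peaks between 10 and 100 kb.

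The GATA3-only class was also the class of repeats. A repeat was annotated at 45.5% of the GATA3-only peaks, 20.2% of the common peaks and 12.3% of the Runx3-only peaks. The share of the genome in repeats was not computed, so whether any class exceeds it was not tested. The tetranucleotide repeats (TAGA)n and (TCTA)n, whose units spell GATA on 1 strand when repeated, held 4261 GATA3-only peaks, 5 common peaks and no Runx3-only peak. They made up 11.5% of the GATA3 list, with 5.52% of its highest score bin. Of the peaks in these repeats, 36.3% overlapped a GATA3 peak of ILC2/b6 and 0.211% a Bcl11b peak of Scid.adh.2c2.

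Several retroelements split by class as well. MT2_Mm, a long terminal repeat of an endogenous retrovirus, held 924 GATA3-only peaks and none of the other classes, and 80.1% of these overlapped a GATA3 peak of ILC2/b6. L1Md_F2, a LINE element, held 584 GATA3-only, 3 common and 2 Runx3-only peaks. RLTR45, another long terminal repeat, was the repeat with most common peaks, with 42 common, 40 Runx3-only and 9 GATA3-only peaks. The reads were 50 nt long, and the sources used here do not say how reads with several matches were treated.

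Common peaks resembled Runx3-only peaks in the company of Bcl11b and Runx1. A Bcl11b peak of the same line overlapped 69.6% of the common peaks (68.2 to 71.0), 62.5% of the Runx3-only peaks and 2.25% of the GATA3-only peaks. For Runx1 the shares were 70.0%, 61.5% and 0.339%. Both factors were present at 58.1% of the common peaks, 49.2% of the Runx3-only peaks and 0.190% of the GATA3-only peaks, and neither at 18.5%, 25.3% and 97.6%. Outside promoters the Bcl11b share was 69.6% for common and 53.3% for Runx3-only peaks, and at promoters it was 69.8% and 78.0%. The classes were defined by Runx3 peaks and Runx1 reads the same word, so the Runx1 shares are not independent of the classes.

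In ILC2/b6 each class followed its own factor. The ILC2/b6 GATA3 list overlapped 53.7% of the common peaks, 46.5% of the GATA3-only peaks and 3.68% of the Runx3-only peaks. The ILC2/b6 Runx3 list overlapped 53.9% of the common, 7.04% of the GATA3-only and 61.8% of the Runx3-only peaks. Of the common peaks, 780 (20.0%) lay in all 8 lists. No other list held 17241 of the GATA3-only peaks (52.1%), against 2347 of the Runx3-only peaks (14.1%) and 306 of the common peaks (7.86%). The series holds Runx1 lists but no list for a relative of GATA3, so these shares are not matched between the classes.

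**Figure D4:**
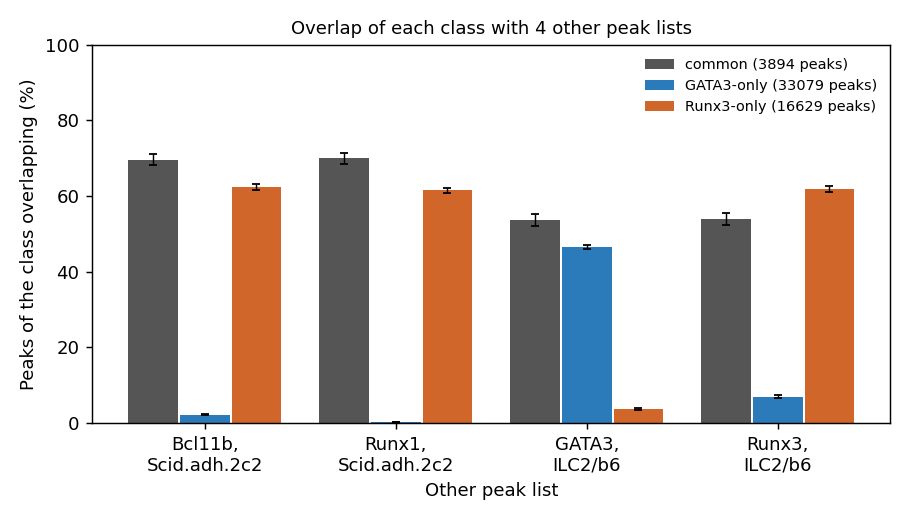
Share of the peaks of each class (y axis, %) that overlap a peak of 4 other lists (x axis); bars are Wilson 95% intervals. For Bcl11b and Runx1 the common and Runx3-only bars stand between 61.5% and 70.0% and the GATA3-only bars at 2.25% and 0.339%.

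The highest-scoring common peak lay in intergenic DNA at chr14:54847111-54847427 (mm9), 26.3 kb from the start site of Dad1, with a GATA3 score of 521.1 and a Runx3 score of 604.5. The enhancer of the T-cell receptor alpha locus is known to lie beside Dad1, a gene for a subunit of the oligosaccharyl transferase. The peak was present in all 8 lists. So were the common peak at -52.2 kb from the start of Itgb6, an integrin chain, and that in intron 1 of Tox2, an HMG-box factor, 3.85 kb from its start. The common peaks with the ranks 4 and 5, near Txndc11 and Pex2, lay in annotated ribosomal RNA repeats.

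Among GATA3-only peaks the highest score, 7200.2, belonged to an intergenic peak on chromosome 16, with N6amt1 as nearest gene at -533.1 kb. The peaks with the ranks 2 and 3, nearest to Phex and Cdc42bpa, lay in (TAGA)n and (TCTA)n repeats, and the fourth lay in the ribosomal RNA gene Rn45s. Among Runx3-only peaks the highest score, 3713.9, belonged to an intergenic peak 25.1 kb from Ly6c2, which encodes a surface protein of the Ly6 family. That peak was present in 2 of the 8 lists.

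Genes near many common peaks were often near many peaks of the other classes. The nearest-gene assignment gave Cxcr4, a chemokine receptor of thymocytes, 9 common, 27 GATA3-only and 9 Runx3-only peaks. Efna5, which encodes an ephrin ligand, had 10, 55 and 18, and its RNA stood at 0.018 and 0.011 RPKM in the control libraries. Dad1 had 8 common, 29 GATA3-only and 13 Runx3-only peaks, most of them over 100 kb away from its start. Cxcr4 stood at 98.6 and 103.6 RPKM and Dad1 at 67.2 and 67.3 RPKM.

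The factors' own loci differed. Gata3 (chr2:9778705-9800227, mm9) had 3 common, 21 GATA3-only and 8 Runx3-only peaks, and its RNA was 54.0 and 57.0 RPKM in the control libraries. A common peak was centred at -0.814 kb from its start site, and the strongest common peak of the locus, with a GATA3 score of 374.5, lay 313.9 kb from the start. Runx1 had 6, 24 and 14 peaks and 19.4 and 21.3 RPKM. Runx3 (chr4:134676560-134733905) had 2, 6 and 6 peaks and a low RNA level of 3.07 and 3.28 RPKM. A Runx3-only peak with a score of 392.4 lay at its promoter, centred at -0.137 kb, and a GATA3-only peak at -0.946 kb. Cbfb, the shared partner of the Runx factors, had 2 Runx3-only peaks and 46.2 and 49.0 RPKM.

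Bcl11b (chr12:109148613-109241624) had 1 common, 5 GATA3-only and 8 Runx3-only peaks and 47.0 and 49.5 RPKM. Its promoter carried a Runx3-only peak at -0.77 kb, and the common peak lay in the 3′ UTR. The genes 4933406K04Rik and 4930465M20Rik on the same chromosome received 10 and 7 common peaks; their RNA stood below 1 RPKM in both control libraries.

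T-lineage genes showed each arrangement. Tcf7, a factor of T-lineage specification, stood at 389.1 and 389.9 RPKM and had 3 common, 1 GATA3-only and 3 Runx3-only peaks. Its common peaks lay at -0.05, -22.5 and -31.5 kb, and that at -31.5 kb had a GATA3 score of 332.8 and a Runx3 score of 441.8. The GATA3-only peak of Tcf7 at -1.47 kb overlapped both a Bcl11b and a Runx1 peak. Rag1 had only common peaks, 1 at the promoter and 1 in an intron 1.202 kb downstream, and stood at 64.1 and 75.7 RPKM.

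The neighbouring gene Rag2, the partner recombinase, had 1 common, 22 GATA3-only and 3 Runx3-only peaks and stood at 0.763 and 0.655 RPKM. Its common peak at -73.2 kb had a GATA3 score of 206 and a Runx3 score of 100.1. Il2ra, the interleukin 2 receptor alpha chain and a marker of pro-T cells, had 3 common, 5 GATA3-only and 4 Runx3-only peaks, with a Runx3-only peak at the promoter, and stood at 150.3 and 168.4 RPKM. Ptcra had 2 Runx3-only peaks and no GATA3 peak and stood at 31.6 and 31.1 RPKM.

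Gene lists differed in the kinds of peak assigned to them. Of 28 lineage transcription factors, 21 (75%) had a common peak, as did 14 of 25 T-lineage genes (56%), 13 of 22 genes of group 2 innate lymphoid cells and type 2 immunity (59.1%) and 11 of 24 T-cell receptor signalling genes (45.8%). Over all 24475 genes of the RNA table the share was 11.6%, and over the 9772 genes at 1 RPKM or more in both control libraries it was 16.7%. Some genes, such as Gata3 and Rora, belong to more than 1 list. The lineage transcription factors were also rich in the other classes, with means of 7.14 GATA3-only and 3.57 Runx3-only peaks. Over all genes these means were 1.35 and 0.667. Rora, a nuclear receptor of innate lymphoid cells, led the transcription factors with 8 common peaks at 6.37 and 6.83 RPKM. Common peaks also lay near genes with little RNA in the line, such as Fasl, the death ligand, with 3 common peaks at 0.012 and 0.030 RPKM.

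A Runx3-only peak at the promoter was assigned to 5894 of all 24475 genes and to 5469 of the 9772 genes at 1 RPKM or more in both control libraries. Of 25 ribosomal protein genes, 2 had a common peak and 20 had a Runx3-only peak at the promoter. Of 25 cell cycle genes, 2 had a common peak and 16 had a Runx3-only peak at the promoter, and these shares were not tested. Of 20 genes of stem, progenitor and myeloid cells 2 had a common peak, as did 2 of 12 B-lineage genes, and of 20 genes of other tissues 5 did. In the other lists, 10 of 23 NK-cell genes, 11 of 24 genes of cytokine receptors, 9 of 22 trafficking genes, 5 of 15 Notch genes, 6 of 22 glycolysis genes and 4 of 20 interferon genes had a common peak. Gene length and the number of peaks per gene were not matched between lists.

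The control RNA level of nearest genes followed the Runx3 side of the split. Genes whose peaks were all Runx3-only (3435 genes) had a median of 10.0 and 10.4 RPKM in the 2 control libraries, and 78.1% of them reached a mean of 1 RPKM. Genes whose peaks were all GATA3-only (5727 genes) had a median of 0 in both libraries, and 15.5% reached 1 RPKM, close to the 18.0% of the 7812 genes with no peak. Genes whose peaks were all common (364 genes) lay between, with medians of 0.342 and 0.373 RPKM and 46.2% at 1 RPKM or more. Genes with both kinds of single-factor peak and no common peak (4659) had medians of 6.98 and 7.38 RPKM, and genes with common and other peaks (2478) had 3.72 and 3.90 RPKM. The medians of the 2 libraries differed less than those of the classes, except between the classes at 0. The class with GATA3-only peaks alone leaves out every gene that also has a Runx3 peak. Of all 12540 genes with any GATA3-only peak, 42.9% reached 1 RPKM, near the 40.3% of all 24475 genes. The share was 72.1% of the 10000 genes with any Runx3-only peak and 57.9% of the 2842 with any common peak.

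**Figure D5:**
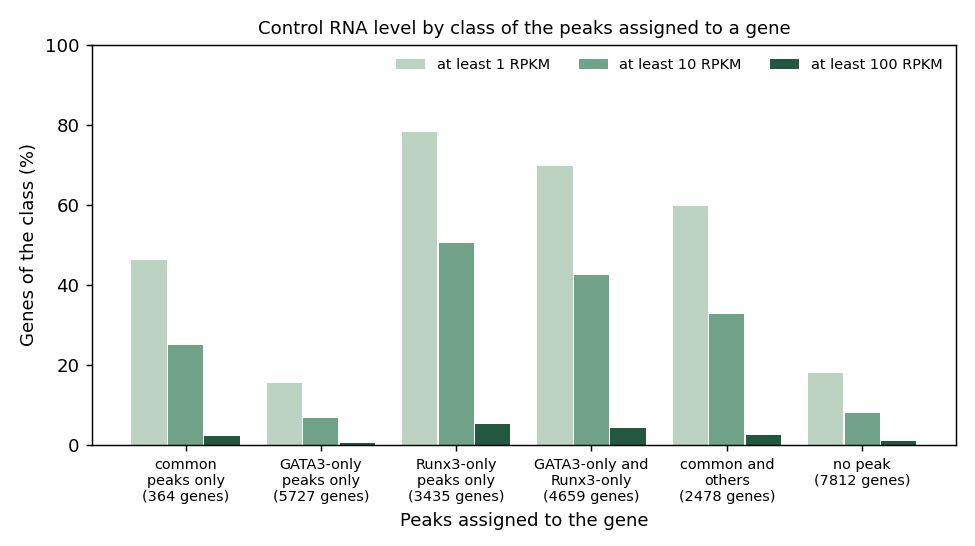
Share of genes (y axis, %) whose mean control RPKM reached 1, 10 or 100, by the classes of the peaks assigned to the gene (x axis, with the number of genes). At 1 RPKM the share is 78.1% for genes with Runx3-only peaks alone, 46.2% for common peaks alone, 15.5% for GATA3-only peaks alone and 18.0% with no peak.

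At promoters the same order held. Genes with a promoter peak of the Runx3-only class alone (5578) had medians of 13.1 and 13.6 RPKM, and 93.1% reached 1 RPKM. Those with a common promoter peak alone (283) had medians of 11.5 and 11.7 RPKM, and 86.6% reached 1 RPKM. Those with a GATA3-only promoter peak alone (381) had medians of 0.613 and 0.629 RPKM, and 46.2% reached 1 RPKM. The 17913 genes with no promoter peak in either list had medians of 0 RPKM, and 22.1% reached 1 RPKM. For peaks outside promoters alone the RNA level was not compared by class. The part of promoter position in the order over all peaks was therefore not tested. The genes with the highest RNA level among common promoters were Rpl13 and Rps27, which encode ribosomal proteins, Aldoa, a glycolytic aldolase, Tcf7 and Gzma; Rpl13 stood at 1280 and 1136 RPKM and Gzma at 209.4 and 197.6 RPKM. Among Runx3-only promoters they were Eef1a1, an elongation factor, at 4237 and 4097 RPKM, followed by Ppia, Ubb, Rpl41 and Rpl8, and among GATA3-only promoters Atp5h, Cct3, Fbl, Tgtp2 and Tbca, with 261.3 and 239.0 RPKM for Atp5h. Ribosomal protein genes, Eef1a1 and Ppia have many processed pseudogenes, so their levels are uncertain where reads could be split.

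The response of these genes to the Bcl11b guide was read against a high background. Bcl11b RNA itself was 47.0 and 49.5 RPKM with the control guide and 47.1 and 46.8 RPKM with the Bcl11b guide, a log2 fold change of -0.039 (adjusted p 0.455 by limma) that became -0.17 (adjusted p 0.00856) with median-centred libraries. A guide need not change the RNA level of its target. By limma on log2(RPKM + 0.5), 57.8% of the 10221 genes tested were called at an adjusted p under 0.05, 35.1% higher and 22.7% lower with the guide. Centring the libraries on their medians lowered every fold change by the same amount (a shift of -0.13 on the log2 scale) and turned the split from 60.7% to 38.5% higher among the genes called. Without guide replicate 1 or 2, 3818 or 3760 genes were called in place of 5908. In bulk RNA, a change in every cell and a larger change in some cells cannot be told apart.

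Genes with 1 or more common peaks were called in 67.9% of 1723 tested genes, 43.7% higher and 24.2% lower, and genes with no common peak in 55.8% of 8498. By class the share called was 56.7% of the 178 genes with common peaks alone, 52.5% of the 950 with GATA3-only peaks alone and 57.4% of the 2728 with Runx3-only peaks alone, all near the background. It was 69.2% of the 1545 genes with common and other peaks. The share also went with the number of peaks among genes with a common peak, at 63.7% of 816 genes with 1 to 4 peaks in all and 71.7% of 907 genes with 5 or more. Among genes with no common peak it was 55.9% of 6086 with 1 to 4 peaks and 56.7% of 903 with 5 or more. Changes of 2-fold or more were 11.5% higher and 4.53% lower among genes with a common peak, against 6.75% and 1.68% of all genes tested. By class, rises of this size were 7.30% for common, 9.68% for GATA3-only and 4.00% for Runx3-only peaks alone. They were 12.0% for common and other peaks, 5.07% for both kinds of single-factor peak and 8.15% for no peak. Falls were 2.81%, 1.16% and 0.623% for the classes alone, then 4.72%, 1.54% and 0.994%.

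The share was 69.8% of 1279 genes where a common peak overlapped a Bcl11b peak and 62.4% of 444 genes where none did. Among genes with a Runx3-only peak and no common peak it was 57.5% of 4806 where such a peak overlapped a Bcl11b peak and 53.0% of 1233 where none did. The size of the difference between genes with and without a common peak depended on the setting. With median-centred libraries it narrowed, to 69.3% called with a common peak and 61.3% without. With no filter it widened, to 48.8% and 32.4%. Whether the difference exceeds chance was not tested, since the peak classes rest on lists without replicates.

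Among genes with common peaks alone, Rag1 fell most with the Bcl11b guide, from 64.1 and 75.7 to 11.7 and 11.01 RPKM (log2 fold change -2.57, SE 0.08, adjusted p 3.48e-07 by limma), and the 2 groups did not overlap. Apol9a and Apol9b, a pair of closely related apolipoprotein L genes whose reads may be shared, rose most, Apol9a from 0.467 and 0.607 to 13.5 and 15.4 RPKM. Gimap1, a GTPase of lymphocytes, rose from 0.796 and 0.463 to 12.6 and 13.1 RPKM.

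Among genes with Runx3-only peaks alone, Ptcra fell from 31.6 and 31.1 to 7.96 and 7.88 RPKM, and Hes5, a Notch target gene, from 14.2 and 15.7 to 3.75 and 3.67 RPKM (log2 fold changes -1.92 and -1.87). Nkg7, a gene of cytotoxic granules, rose from 0.992 and 1.499 to 43.2 and 42.6 RPKM, and Cd52, a lymphocyte surface glycoprotein, from 3.94 and 2.83 to 80.2 and 85.4 RPKM. Among genes with GATA3-only peaks alone, Ly6g and Ly6c1 rose most, by 5.55 and 5.50 on the log2 scale, and Arsi, a sulfatase, fell most, from 43.8 and 45.5 to 7.38 and 7.24 RPKM. With 1 set of start sites for both lists, Arsi also had 1 Runx3-only peak and Apol9a also had 2 GATA3-only peaks, so that neither then had peaks of 1 class alone. Ly6c2, the gene nearest to the highest Runx3-only peak, rose from 0.308 and 0.458 to 46.5 and 42.6 RPKM; the Ly6 genes are close copies, so reads may be split between them.

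Of the factors themselves, Runx3 rose from 3.07 and 3.28 to 18.0 and 18.2 RPKM (log2 fold change 2.34, SE 0.07, adjusted p 2.58e-07 by limma), with no overlap between the groups. Tcf7 fell from 389.1 and 389.9 to 216.0 and 218.1 RPKM, and Il2ra from 150.3 and 168.4 to 44.3 and 42.8 RPKM. Tox2, with the common peak of rank 6, rose from 0.481 and 0.312 to 7.29 and 8.30 RPKM. Gata3 was 54.0 and 57.0 RPKM with the control guide and 63.1 and 66.2 RPKM with the Bcl11b guide, and its call (log2 fold change 0.22, adjusted p 0.00506 by limma) was lost with median-centred libraries (adjusted p 0.142) and without guide replicate 2 (adjusted p 0.0671). The peak lists come from the unmodified line, so the level of Runx3 with the guide was not matched by a Runx3 peak list.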

How the data were processed

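ChIP-seq and RNA-seq values of Scid.adh.2c2 were taken as deposited. The members and gene lists were chosen with earlier results of these data known. Per the file headers, the authors made each peak list from both libraries of a factor, kept the peaks that passed an IDR (irreproducible discovery rate) step, and annotated them with HOMER on mm9; the deposited peak score is used within a list only, and the lowest score is 15. The deposited distances to start sites (in bp) and annotations are the authors'; the Runx3 list left 1706 peaks without a gene name, of which 1701 were named from their nearest transcript through RefSeq. RPKM values were deposited per library for 24475 genes. Per the submitters' processing notes, the tools, listed without their roles, were STAR 2.4.0, RSEM 1.2.25 and Bowtie 1.1.1, next to edgeR 3.6.8, HOMER and Trimmomatic. The inputs of the line carry the label FA or the label DSG, and the sources do not say which was paired with each ChIP. A difference of input between the GATA3 and Runx3 lists could not be told apart from the factor. A further 4 columns of ILC2/b6 RPKM were not used.

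Overlaps needed 1 bp. Common peaks were annotated by their GATA3 interval. Genes with at least 1 RPKM in 2 or more libraries entered limma 3.58.1 in R 4.3.3 as log2(RPKM + 0.5) (trend, Benjamini-Hochberg adjustment over all tested genes, threshold 0.05); in a check on simulated data the share of false calls exceeded the threshold, so counts of calls may be too high. RPKM steps gave whole reads for 100% of the values low enough to test, within 0.1 read. Named genes came from a rule: per class, the 6 genes with most peaks, those at the 6 highest scores, the 5 promoter genes with the highest RPKM and the 4 largest rises and falls among genes with peaks of 1 class, plus the factors and up to 4 members with most peaks per gene list. For common peaks the highest scores were those with the highest value of the lower of the 2 within-list score percentiles. Cd3g was added after its values were seen. Not every gene that the rule names is described. Repeats were named by number of peaks, after these were seen. Alternatives changed the overlap, score, list length, promoter definition, start sites, repeats, pseudocount, filter, scaling and libraries.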

Additional observations from a re-analysis of the deposited data

How the results depend on the processing

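The limits are these: no list has replicates, nearest genes need not be the genes regulated, and 2 libraries a group limit the RNA test. The order of the 3 classes at promoters, in distance, in control RPKM and in overlap with Bcl11b and Runx1 was kept under each alternative below. An overlap of at least 0.5 of the narrower interval left 9.21% of the GATA3 list and 16.6% of the Runx3 list common; it gave promoter shares of 6.99% (common) and 2.27% (GATA3-only), a median of 0.204 RPKM for genes with common peaks alone, Bcl11b shares of 68.0% (common) and 57.2% (Runx3-only), and Runx1 shares of 0.447% (GATA3-only) and 59.6% (Runx3-only). Peaks with a score of at least 30 gave common shares of 12.2% and 16.7%, promoter shares of 7.09%, 3.16% and 37.9% (common, GATA3-only, Runx3-only), 27.5 kb for GATA3-only peaks, 0.552 and 0.0185 RPKM for common and GATA3-only genes, Bcl11b shares of 85.4%, 9.89% and 77.3%, and Runx1 shares of 95.9%, 4.37% and 91.0%; by construction this setting moves strong GATA3 peaks over weak Runx3 peaks into the GATA3-only class. Lists of equal length gave 15.6% of both lists, promoter shares of 2.54% (GATA3-only) and 36.1% (Runx3-only), distances of 30.4 and 4.09 kb, 0.190 RPKM (common) and 9.30 RPKM (Runx3-only), Bcl11b shares of 72.2% (common) and 3.70% (GATA3-only), and Runx1 shares of 72.0% and 0.555%.

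Without peaks in simple repeats, an alternative chosen after seeing the data, 11.9% of the GATA3 list was common, 2.36% of the GATA3-only peaks lay at promoters and 2.57% on Bcl11b peaks, their median distance was 31.9 kb, and the medians were 0.247 RPKM (common) and 9.96 RPKM (Runx3-only). A promoter defined as within 1000 bp gave 10.9%, 3.50% and 43.5%; with 1 set of start sites, also chosen after seeing the data, it gave 10.3%, 3.23% and 41.5%, and distances of 24.9, 37.4 and 4.66 kb. Among genes at 1 RPKM or more in both control libraries the medians were 11.2, 8.81 and 15.0 RPKM (common, GATA3-only, Runx3-only); with peaks within 50 kb they were 0.407 (common) and 9.83 (Runx3-only), and counting each peak they were 3.35, 0.109 and 7.71 RPKM. Each control library alone gave 0.342 to 0.373 (common) and 10.0 to 10.4 RPKM (Runx3-only). The cause of these moves was not tested.

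With no filter, 22.3% of GATA3-only genes, 32.4% of genes with no common peak and 34.7% of all genes were called, over more genes tested. Leaving out each library in turn gave 3760 to 6878 genes called, or 36.8% to 67.3% of all genes, 32.5% to 64.0% for GATA3-only genes, 33.4% to 66.3% for Runx3-only genes and 34.0% to 65.8% for genes with no common peak; the lone library of an arm is then assumed to vary like the others. The fold change of Cbfb turned from 0.11 to -0.025 with median-centred libraries, and that of Runx1 from -0.05 to 0.018 without control replicate 2; without control replicate 1 it was -0.12; neither was called in the main test. Runx1 was called without control replicate 1 and with median-centring (-0.18), and Cbfb without control replicate 2 (0.15). The replicate numbers share only a number (correlation across 10221 genes of the replicate differences, 0.037): with the replicate number as a block, 5921 genes were called in place of 5908. Depth limits low genes, 1 read on a 2 kb transcript being worth 0.0114 to 0.0144 RPKM.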
